A study of Arabidopsis thaliana with 8 samples.

Results

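Buds of the *elf6* and *jmj13* mutants of Arabidopsis thaliana were compared with each other directly, gene by gene. The 4 libraries compared are the 2 *elf6* and the 2 *jmj13* libraries, out of 8 in the series, and they were taken by their genotype labels. The study sequenced messenger RNA from closed buds of floral stages 9 to 13 of the primary inflorescence, in 4 genotypes with 2 libraries each. All plants were in the Col-0 background and were grown on soil in long days. Col-0 is the wild-type accession, and *jmj13* carries the T-DNA insertion GABI_113B06 and *ref6* the insertion ref6-1. For *elf6* the methods of the study name the allele elf6-3, the deposited data are marked with another allele and the labels name none, so which *elf6* allele was sequenced is not known. No source states that the 2 libraries of a genotype came from separate plants, so the p-values measure the spread between these libraries only.

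ELF6, JMJ13 and REF6 are JmjC-domain enzymes that remove methyl groups from lysine 27 of histone H3. Trimethylation of this lysine is placed by Polycomb complexes and is found on genes that are kept silent, so loss of a demethylase can leave its target genes marked. The enzymes are best known in Arabidopsis for their part in flowering time, hormone responses and organ growth. The comparison asks in which transcripts the buds of the ELF6 and JMJ13 mutants differ, since both carry a lesion in an enzyme of the same reaction.

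ELF6 (AT5G04240, chr5:1169153-1174992 of TAIR10.1, plus strand, 7 exons) had 18 and 28 expected counts in the *elf6* libraries and 148 and 132 in the *jmj13* libraries. Its Col-0 counts were 68 and 88, and its *ref6* counts were 95 and 118. The *elf6* libraries were thus the lowest of the 8 for their own mutated gene, and the fitted difference from *jmj13* was 5.62-fold (log2 fold change -2.49, SE 0.32, adjusted p = 0.012). JMJ13 (AT5G46910, chr5:19046339-19051379, plus strand, 11 exons) had 45 and 45 counts in *jmj13*, 74 and 44 in *elf6*, 22 and 51 in Col-0 and 21 and 50 in *ref6*. Counts of JMJ13 over the whole gene therefore did not set the libraries labelled *jmj13* apart, and they give no check of that label. The study also viewed its aligned reads along these loci and states that the insertion disrupts the catalytic domain in *jmj13*. Counts per gene cannot show where in a gene the reads lie. REF6, the third enzyme, had 162 and 104 counts in *elf6* and 201 and 124 in *jmj13*, and the groups overlapped (log2 fold change -0.18, SE 0.34, adjusted p = 0.99). ELF6 and JMJ13 both overlap an annotated gene on the opposite strand, and no source says whether reads were counted by strand.

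The total of expected counts lay between 11373306 and 12048319 in all 8 libraries. The 2 replicates of *elf6* and of *jmj13* were close to each other: across genes, the SD of the log2 ratio between replicates was 0.49 in *elf6* and 0.48 in *jmj13*, against 0.79 in Col-0 and 0.78 in *ref6*. Replicate 1 of Col-0 and replicate 1 of *ref6* stood apart from the other libraries. In these 2 libraries the TMM factor, which scales each library by the bulk of its genes, was 0.739 and 0.742, against 1.012 to 1.218 in the other 6. Both were kept in the fit because they help to estimate the spread, and counts without them are given beside the main ones.

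Of 19939 genes tested, 154 differed between *elf6* and *jmj13* at an adjusted p under 0.05 and at least 2-fold in edgeR's quasi-likelihood test, or 0.772%. The difference was one-sided, with 145 genes higher in *elf6* (0.727%) and 9 higher in *jmj13* (0.0451%). The median fold among the 145 genes was 4.58 and the range ran from 2.32 to 51.5, and 33 of them differed at least 8-fold. Among the 9 genes higher in *jmj13*, the median fold was 3.89 and the highest was 5.62, which belongs to the mutated ELF6 itself. The median log2 fold change of all genes was -0.03.

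**Figure D1:**
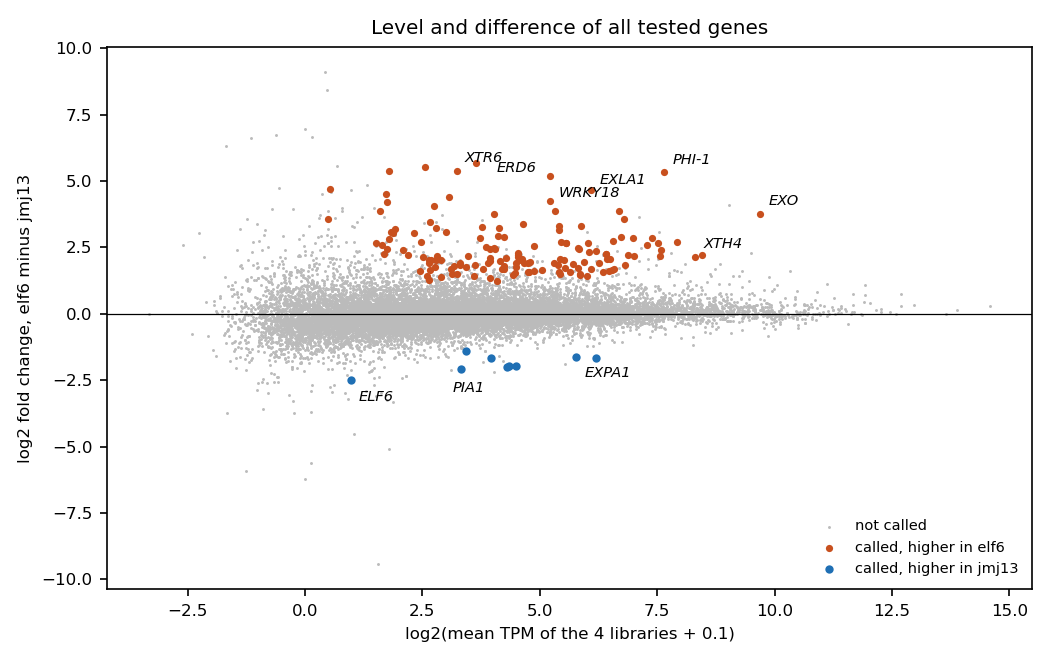
Level (log2 of the mean TPM of the 4 libraries plus 0.1, horizontal) and log2 fold change (*elf6* minus *jmj13*, vertical) of the 19939 tested genes, each point a gene. The 145 genes called higher in *elf6* reach a log2 fold change of 5.69, whereas the 9 called higher in *jmj13* reach -2.49 and grey points were not called.

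The number of genes that passed differed with the libraries in the fit. With only the 4 libraries in the fit 726 genes passed, 622 of them higher in *elf6*, and with the 2 libraries that stood apart left out 746 passed, 647 of them higher in *elf6*. All 154 genes were among those called in both of these fits. When 1 library was left out, the count was 276 without Col-0 replicate 1, 268 without Col-0 replicate 2, 326 without *ref6* replicate 1 and 319 without *ref6* replicate 2. It was 17 without *elf6* replicate 1, 2 without *jmj13* replicate 2, and 0 without *elf6* replicate 2 or without *jmj13* replicate 1, when 926 and 864 genes still had an unadjusted p under 0.05. In these last 4 fits 1 genotype is a single library, whose spread is assumed to be like that of the other groups.

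The 154 genes were sorted by annotated product after their values had been seen. The groups hold 24 genes of the cell wall and the space outside the membrane, 22 transcription factors and repressors, 13 transporters and channels, 10 receptors, peptides and calcium-linked signalling proteins, 6 genes of hormone turnover or perception and 4 NBS-type resistance proteins. The other 75 genes fell in none of these groups. Only called genes were sorted, so the share of such genes among all tested genes is not known. The group sizes therefore do not show whether a function is more frequent than elsewhere. Of the 24 wall genes, 21 were higher in *elf6* and 3 higher in *jmj13*, and of the 22 regulators 21 were higher in *elf6*. All 13 transporter genes were higher in *elf6*. Since 145 of all 154 called genes were higher in *elf6*, these directions are near that of the called genes as a whole and say nothing particular of a group.

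XTH enzymes cut xyloglucan chains and rejoin them, and are used when a wall expands or is reinforced. Of 33 annotated XTH genes 21 were tested, 5 were called higher in *elf6* and none higher in *jmj13*. Over all tested genes these shares were 0.727% and 0.0451%. Their median log2 fold change was 1.70, against -0.03 for all genes, and 18 of the 21 had a value above 0. With only the 4 libraries, or without the 2 libraries that stood apart, 15 of them passed. The study took up XTH24, a member of this list, on these libraries, so the direction of the list is not wholly independent evidence.

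XTR6 (AT4G25810), an XTH gene that also counts among the touch-induced genes, had 14.2 and 22 TPM in *elf6* and 0.456 and 0.470 in *jmj13*. Col-0 held 0.813 and 1.29 TPM and *ref6* 0 and 0.793. TPM is the share of all transcripts, corrected for gene length. The *elf6* libraries were above all others, and the difference from *jmj13* was 42.0-fold (log2 fold change 5.39, SE 0.65, adjusted p = 0.0096), on 5 counts in each *jmj13* library. XTH4 was much more abundant, with 454 and 558 TPM in *elf6*, 117 and 135 in *jmj13*, 163 and 153 in Col-0 and 167 and 189 in *ref6* (4.43-fold, adjusted p = 0.023). For XTH16 the levels were 316 and 320 TPM in *elf6*, 71.0 and 61.1 in *jmj13*, 89.4 and 67.5 in Col-0 and 49.2 and 102 in *ref6* (5.33-fold, adjusted p = 0.018). In both genes the *elf6* libraries were above all 6 others. EXGT-A3 had 59.4 and 63.1 TPM in *elf6* against 21.6 and 24.3 in *jmj13* (2.95-fold, adjusted p = 0.023), and XTH15 had 126 and 161 against 47.3 and 50.4 (3.24-fold, adjusted p = 0.030). Among members that missed the threshold, TCH4 held 896 and 1060 TPM in *elf6* and 38.8 and 86.3 in *jmj13* (log2 fold change 4.10, adjusted p = 0.054).

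Genes that build xyloglucan were called as well. CSLC04, which makes the glucan backbone, had 23.5 and 25.3 TPM in *elf6*, 6.24 and 6.32 in *jmj13*, 4.85 and 6.78 in Col-0 and 4.03 and 8.89 in *ref6* (4.29-fold, SE of the log2 fold change 0.26, adjusted p = 0.0096). It was the only one of the 35 tested cellulose synthase and cellulose synthase-like genes that was called, and the median of that list was 0.06. XT1, a xylosyltransferase that adds side chains to this backbone, had 114 and 124 TPM in *elf6* and 43.4 and 43.8 in *jmj13* (2.99-fold, adjusted p = 0.028).

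Genes of the expansin superfamily were called in both directions. Expansins loosen walls, and the expansin-like A proteins are related to them but are not known to share that activity. EXLA1 (AT3G45970) had 118 and 144 TPM in *elf6*, 5.15 and 6.23 in *jmj13*, 14.0 and 11 in Col-0 and 7.54 and 24.9 in *ref6*. Its 25.3-fold difference had an adjusted p of 0.0053, the lowest reached, shared with SLAH3 and AT5G54710, and *jmj13* was also below both Col-0 libraries. EXLA1 overlaps an annotated gene on the opposite strand. EXLA2 (AT4G38400) had 167 and 215 TPM in *elf6*, 13.4 and 15.4 in *jmj13*, 30.3 and 35.5 in Col-0 and 14.8 and 53.6 in *ref6* (14.6-fold, adjusted p = 0.0071). These were 2 of the 5 tested beta-expansin and expansin-like genes, and the other 3 had values below 0, so that the median was -0.52. Over all tested genes 0.727% were called higher in *elf6*.

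Of 25 annotated alpha-expansin genes 14 were tested, 12 had a log2 fold change below 0 and the median was -0.59. One was called, EXPA1 (AT1G69530), with 21.1 and 28.8 TPM in *elf6*, 80.9 and 87.0 in *jmj13*, 43.4 and 73.1 in Col-0 and 48.2 and 44.5 in *ref6* (3.05-fold higher in *jmj13*, log2 fold change -1.61, SE 0.30, adjusted p = 0.044). EXPA10 missed the threshold, with 31.8 and 39.8 TPM in *elf6* and 88.2 and 97.3 in *jmj13* (log2 fold change -1.23, adjusted p = 0.054). The study took up expansins on these same libraries, so the direction of this list is not independent evidence.

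Transcripts of 3 cell-surface glycoprotein genes, FLA9, FLA13 and AGP10, were higher in *elf6*. FLA9 and FLA13 are fasciclin-like arabinogalactan proteins, heavily glycosylated proteins of the cell surface. FLA13 had 72.6 and 78.8 TPM in *elf6*, 10.5 and 8.34 in *jmj13*, 26.8 and 20.4 in Col-0 and 12.1 and 17.7 in *ref6* (8.87-fold, adjusted p = 0.0071). FLA9 had 257 and 322 TPM in *elf6*, 40.9 and 48.2 in *jmj13*, 110 and 97.7 in Col-0 and 65.4 and 111 in *ref6* (7.17-fold, adjusted p = 0.0093). In these 2 genes Col-0 lay between the mutants, above both *jmj13* libraries and below both *elf6* libraries. AGP10, an arabinogalactan protein, showed the same order, with 260 and 347 TPM in *elf6*, 191 and 138 in Col-0, 161 and 165 in *ref6* and 74.6 and 74.8 in *jmj13* (4.49-fold, adjusted p = 0.032). AGP10 overlaps an annotated gene on the opposite strand. In the main fit AGP10 alone was called of 28 tested arabinogalactan protein genes, with a median of 0.59. Of 17 tested fasciclin-like genes 2 were called, with a median of 0.33, against 0.727% of all tested genes called higher in *elf6*. With only the 4 libraries in the fit 8 arabinogalactan protein genes and 5 fasciclin-like genes passed, all higher in *elf6*, out of 726 genes in that fit. The study also took up arabinogalactan proteins on these libraries, so this direction is not independent evidence.

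EXO (EXORDIUM) and its relatives encode secreted proteins, and EXO is known for its part in brassinosteroid-dependent leaf growth. EXO was the most abundant of the wall genes, with 1410 and 1640 TPM in *elf6*, 112 and 135 in *jmj13*, 448 and 178 in Col-0 and 69.1 and 318 in *ref6* (13.6-fold, adjusted p = 0.034). PHI-1, of the same family, had 359 and 419 TPM in *elf6*, 5.28 and 15.8 in *jmj13*, 29.8 and 26.4 in Col-0 and 5.92 and 34.1 in *ref6* (40.2-fold, adjusted p = 0.012). EXL5, of the same family, had 182 and 256 TPM in *elf6* and 28.8 and 37.4 in *jmj13* (7.29-fold, adjusted p = 0.013). In EXO and PHI-1 the *elf6* libraries were above all others, and the *ref6* replicates were far apart. LRX3, a leucine-rich extensin, had 145 and 176 TPM in *elf6*, 30.4 and 22.7 in *jmj13*, 68.0 and 59.3 in Col-0 and 45.5 and 66.3 in *ref6* (6.69-fold, adjusted p = 0.0096), and THE1, a receptor kinase that senses wall integrity, had 22.2 and 25.4 in *elf6* and 7.46 and 5.99 in *jmj13* (3.92-fold, adjusted p = 0.026). EXO, EXL5, LRX3, THE1, XT1, XTH15, TCH4 and EXPA10 were chosen for the text after their values were seen.

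**Figure D2:**
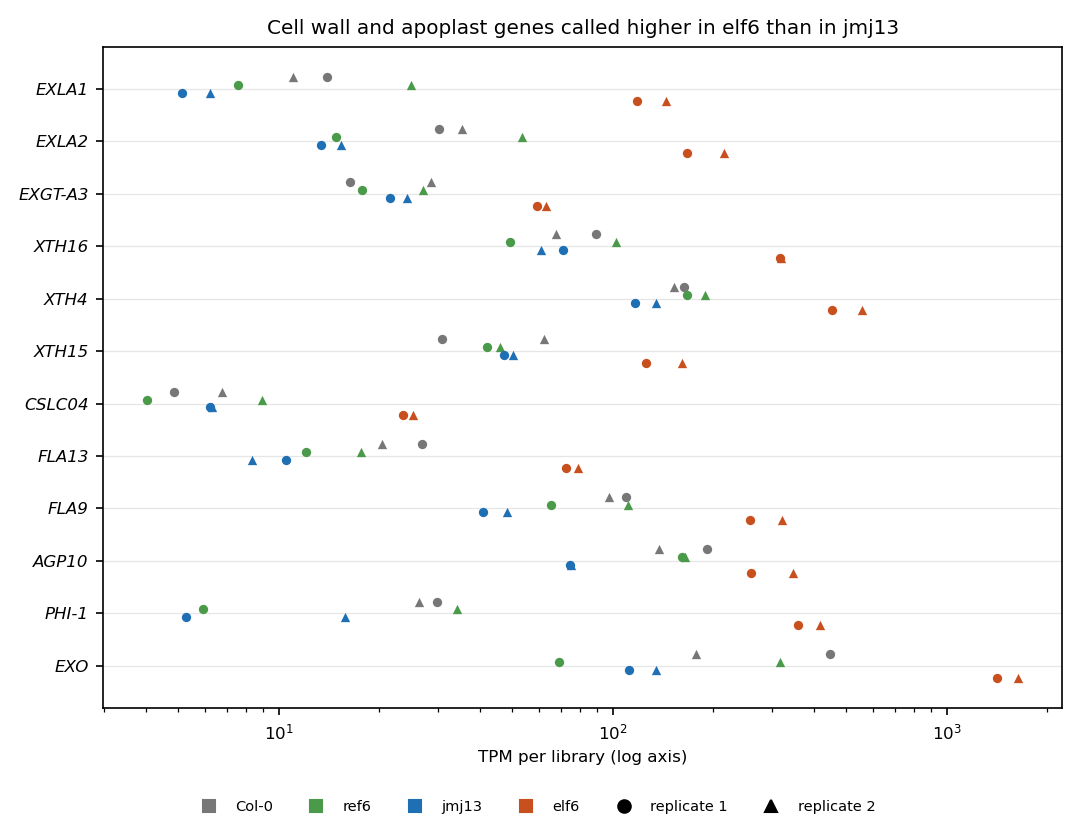
TPM in each of the 8 libraries (horizontal, log axis) for 12 cell wall and apoplast genes called higher in *elf6* than in *jmj13*; colours are genotypes, circles replicate 1 and triangles replicate 2. The *elf6* points lie to the right of the other 3 genotypes in every row. For EXLA1, EXLA2, XTH4, FLA13, FLA9, AGP10, PHI-1 and EXO the Col-0 points lie between the mutants.

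Touch-induced genes had the second-highest median of the lists, after the XTH enzymes, with which they share XTR6 and TCH4. These genes respond quickly to bending or wounding of the plant. Of 17 annotated touch genes 16 were tested and 4 were called higher in *elf6*, none higher in *jmj13*, with a median log2 fold change of 1.64. Over all tested genes 0.727% were called higher in *elf6* and 0.0451% higher in *jmj13*. All 16 had a value above 0. The summed level of the list was 2100 and 2310 TPM in *elf6*, 276 and 442 in *jmj13*, 458 and 324 in Col-0 and 151 and 478 in *ref6*. Both *elf6* libraries were above all 6 others. TCH4, which was not called, and ERF6 held a large part of the *elf6* sums. ERF6 and WRKY33 also count in the AP2/ERF and WRKY lists. Without the 2 libraries that stood apart 11 of the 16 genes passed.

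WRKY33, a WRKY factor of wound and pathogen responses, had 39.1 and 35.9 TPM in *elf6*, 5.27 and 12.3 in *jmj13*, 3.37 and 3.66 in Col-0 and 3.76 and 7.92 in *ref6* (4.69-fold, SE of the log2 fold change 0.39, adjusted p = 0.032). ARL, an ARGOS-like gene linked to organ size, had 26.3 and 35.3 TPM in *elf6* and 8.25 and 7.69 in *jmj13* (4.26-fold, adjusted p = 0.032). Both genes were higher in *elf6* than in all 6 other libraries. TCH3 and TCH2, calmodulin-like proteins that bind calcium, did not pass. TCH3 had 250 and 262 TPM in *elf6* and 15.7 and 28.6 in *jmj13* (log2 fold change 3.66, SE 0.76, adjusted p = 0.063), and TCH2 had 168 and 172 against 48.5 and 59.9 (log2 fold change 1.79, SE 0.50, adjusted p = 0.19). None of the 9 tested calmodulin-like genes was called, although the median of this list was 1.02. With only the 4 libraries in the fit, TCH3 (adjusted p = 3.5e-05) and TCH2 (adjusted p = 0.00019) did pass. In that fit 3 genes of this list passed, all higher in *elf6*. Reads of WRKY33, TCH3 and TCH2 could include those of genes that overlap them on the opposite strand.

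Among WRKY factors 43 of 71 annotated genes were tested and 3 were called, all higher in *elf6*, against 0.727% of all tested genes. The median of the list was -0.07, near that of all genes. WRKY18 had 68.3 and 72.6 TPM in *elf6*, 3.75 and 4.35 in *jmj13*, 4.86 and 4.29 in Col-0 and 0.649 and 12.2 in *ref6* (19.1-fold, adjusted p = 0.033). WRKY22 had 16 and 19.6 TPM in *elf6*, 3.26 and 5.28 in *jmj13*, 2.51 and 4.30 in Col-0 and 2.37 and 4.84 in *ref6* (4.58-fold, adjusted p = 0.023). Both genes were similar in *jmj13* and Col-0, and *elf6* alone stood high.

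The AP2/ERF family, which holds ethylene response factors and cold-response factors, had 6 of 86 tested genes called, all higher in *elf6*, with a median of -0.15. The share of all tested genes called in this direction was 0.727%. AT1G33760 had the largest fold of all called genes, with 20.7 and 27.5 TPM in *elf6*, 0.285 and 0.710 in *jmj13*, 2.86 and 1.69 in Col-0 and 0.390 and 2.16 in *ref6*. On 349 counts in *elf6* and 7 in *jmj13*, the scaled ratio was 53.7 with an exact 95% interval of 25.8 to 135 that covers counting error only, and the fit gave 51.5-fold (adjusted p = 0.0096). ERF6 had 395 and 439 TPM in *elf6*, 50.6 and 89.7 in *jmj13*, 108 and 62.3 in Col-0 and 45.3 and 131 in *ref6* (6.53-fold, adjusted p = 0.039). ERF-1, its neighbour on chromosome 4, had 257 and 270 TPM in *elf6*, 40.3 and 55.5 in *jmj13*, 63.1 and 51.3 in Col-0 and 26.7 and 96.7 in *ref6* (6.06-fold, adjusted p = 0.031). DREB26 had 26.7 and 33.0 TPM in *elf6*, 2.30 and 2.59 in *jmj13*, 11.5 and 6.65 in Col-0 and 2.57 and 14.3 in *ref6* (13.4-fold, adjusted p = 0.028), so that for this gene *jmj13* was also below Col-0.

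By a looser rule, an unadjusted p under 0.05 with at least 2-fold and no overlap of the 2 genotypes, 13 of the 86 tested AP2/ERF genes were higher in *elf6* and 7 higher in *jmj13*, against 3.84% and 1.28% of all tested genes. CBF1, a cold-response factor, had 0.659 and 0.444 TPM in *elf6* and 4.42 and 5.43 in *jmj13* (log2 fold change -3.08, SE 0.84, adjusted p = 0.17). ORA47, a jasmonate-response factor, had 7.14 and 3.45 TPM in *elf6* and 23.8 and 30.0 in *jmj13* (log2 fold change -2.20, SE 0.51, adjusted p = 0.095). Neither gene passed the test, and both were picked after their values were seen. The study had selected CBF1 on these libraries, so its direction is not independent evidence. Their Col-0 values, 3.25 and 4.00 TPM for CBF1 and 24.9 and 14.4 TPM for ORA47, were above both *elf6* libraries.

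Other called regulators were ATAF2, a NAC factor, with 67.1 and 71.1 TPM in *elf6* and 23.1 and 23.5 in *jmj13* (3.27-fold, adjusted p = 0.029), and SARD1, a regulator of salicylate synthesis, with 6.14 and 6.37 in *elf6* and 0.353 and 1.29 in *jmj13* (8.28-fold, adjusted p = 0.039). ATAF2 and SARD1 overlap genes on the opposite strand. ATAF2 was the only NAC gene called of 44 tested, and with only the 4 libraries in the fit 3 NAC genes passed, all higher in *elf6*. BZIP53 had 130 and 145 TPM in *elf6* and 29.9 and 34.3 in *jmj13* (4.72-fold, adjusted p = 0.034). A second annotated locus, AT3G62422, overlaps BZIP53 and had the same counts in every library, so these are not independent genes.

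**Figure D3:**
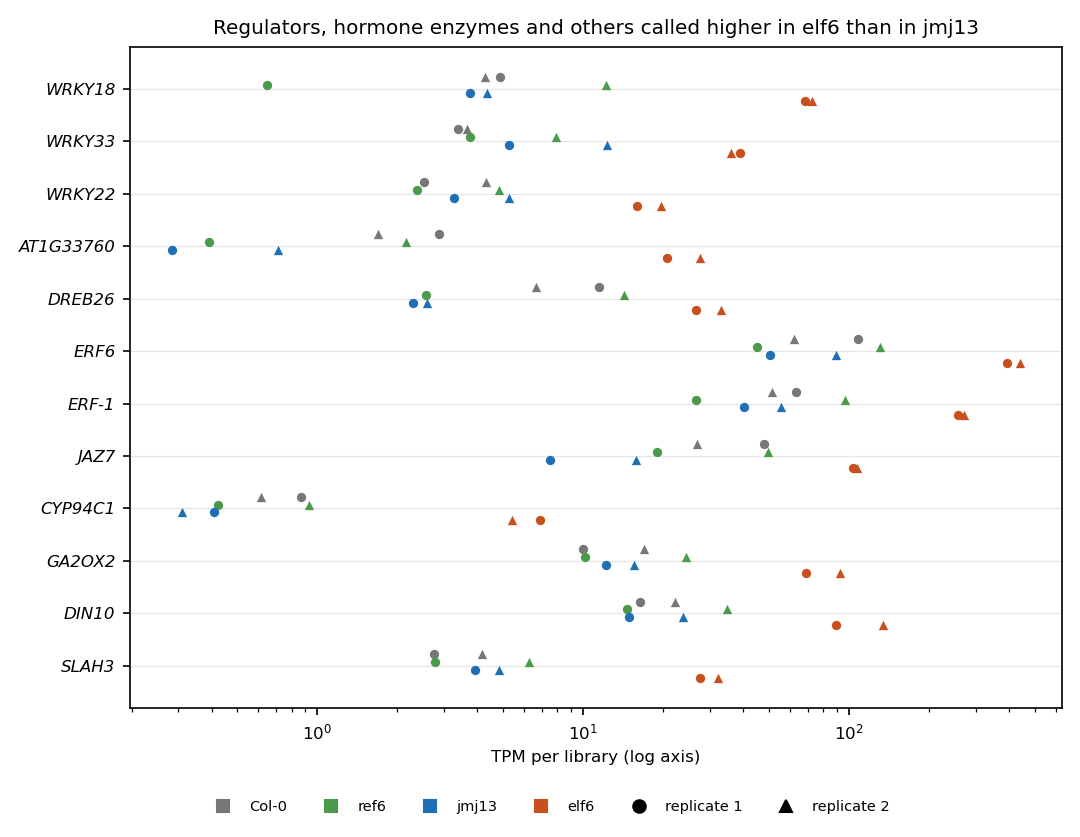
TPM in each of the 8 libraries (horizontal, log axis) for 12 regulators, hormone enzymes and other genes called higher in *elf6* than in *jmj13*. Colours are genotypes, circles replicate 1 and triangles replicate 2. The *elf6* replicates lie close together and to the right, whereas the *ref6* replicates are spread, as for WRKY18 with 0.649 and 12.2 TPM.

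Promoters of the called genes were read from the genome, 300 bases before the annotated gene start. WRKY factors bind the W-box, searched here as TTGACC or TTGACT on both strands. It was present in 60 of 144 promoters of genes higher in *elf6* (41.7%), in 4 of 9 promoters of genes higher in *jmj13* (44.4%) and in 6187 of 19815 promoters of all tested genes (31.2%). In the larger set of genes higher in *jmj13* by the looser rule, 82 of 252 promoters held it (32.5%), near the share of all tested genes. The sequences below are from RefSeq TAIR10.1, 5′ to 3′, with W-box matches in capitals on either strand. They are shown because WRKY33 and AT1G48100, which differ in opposite directions, each hold 3 matches, and XTR6 is the XTH gene with the largest fold.
WRKY33, chr2:16107935-16108234, plus strand: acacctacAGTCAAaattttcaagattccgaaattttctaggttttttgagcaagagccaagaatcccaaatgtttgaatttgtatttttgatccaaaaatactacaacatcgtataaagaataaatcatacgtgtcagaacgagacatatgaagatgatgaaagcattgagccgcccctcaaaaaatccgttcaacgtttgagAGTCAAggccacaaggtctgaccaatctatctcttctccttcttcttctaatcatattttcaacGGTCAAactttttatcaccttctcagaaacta
XTR6, chr4:13128094-13128393, plus strand: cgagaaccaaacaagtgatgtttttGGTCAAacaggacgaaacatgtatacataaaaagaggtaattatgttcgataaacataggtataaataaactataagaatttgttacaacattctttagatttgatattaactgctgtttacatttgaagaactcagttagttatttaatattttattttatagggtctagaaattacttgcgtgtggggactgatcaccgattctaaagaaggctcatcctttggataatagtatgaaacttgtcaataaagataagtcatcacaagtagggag
AT1G48100, chr1:17766438-17766737, plus strand: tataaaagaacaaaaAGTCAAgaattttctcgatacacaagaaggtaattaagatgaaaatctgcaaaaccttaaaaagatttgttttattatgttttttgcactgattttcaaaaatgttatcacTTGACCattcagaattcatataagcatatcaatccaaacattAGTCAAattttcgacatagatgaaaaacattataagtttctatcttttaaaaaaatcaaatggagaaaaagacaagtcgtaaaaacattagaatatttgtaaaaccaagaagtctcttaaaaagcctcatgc
Other motifs searched on both strands are given in the same way. In genes higher in *elf6* and in all tested genes, the share was 8.33% and 7.96% for CACGTG, 11.1% and 14.7% for CCGAC, 2.08% and 2.26% for GCCGCC, 6.94% and 5.79% for AAATATCT, 4.17% and 3.23% for CGCGTT, 4.17% and 1.89% for CGTGCG, and 61.8% and 62.4% for CANNTG, which includes every CACGTG. The CGTGCG matches were in 6 promoters of genes higher in *elf6*. A match is a description of the sequence only.

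In the main fit each jasmonate and gibberellin list held 1 call at most. Jasmonate is made in wounded tissue and in stamens, and JAZ proteins repress its response. JAZ7 (AT2G34600) had 104 and 107 TPM in *elf6*, 7.52 and 15.8 in *jmj13*, 47.9 and 26.9 in Col-0 and 18.9 and 49.7 in *ref6* (9.93-fold, SE of the log2 fold change 0.51, adjusted p = 0.024). Col-0 lay between the mutants for this gene. It was the only JAZ gene called of 11 tested, with a median of 0.30, but 3 passed, all higher in *elf6*, with only the 4 libraries in the fit. The study took up JAZ7 on these libraries, so its direction is not independent evidence. CYP94C1, which oxidises the active jasmonate, had 6.86 and 5.42 TPM in *elf6*, 0.410 and 0.309 in *jmj13*, 0.866 and 0.615 in Col-0 and 0.422 and 0.931 in *ref6* (18.4-fold, adjusted p = 0.0096). Of 5 tested jasmonate turnover genes CYP94C1 alone was called, at a median of 0.82, and 2 passed, both higher in *elf6*, with only the 4 libraries in the fit. None of the 15 tested jasmonate synthesis genes was called, at a median of 0.70, but 4 passed, all higher in *elf6*, with only the 4 libraries in the fit. In the main fit the synthesis gene with the lowest p, LOX4, had a log2 fold change of 1.66 (SE 0.35, adjusted p = 0.071).

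GA2OX2, which inactivates gibberellins, had 68.9 and 92.2 TPM in *elf6*, 12.2 and 15.6 in *jmj13*, 10 and 17.0 in Col-0 and 10.2 and 24.3 in *ref6* (6.40-fold, adjusted p = 0.0093). The *elf6* libraries were above all 6 others. It was the only one called of 20 tested gibberellin oxidases, receptors and DELLA genes, whose median was -0.27. With only the 4 libraries in the fit 3 genes of this list passed higher in *elf6* and 1 higher in *jmj13*. Abscisic acid genes were called in both breakdown and perception: CYP707A3, a hydroxylase of this hormone, had 31.7 and 33.8 TPM in *elf6* and 3.64 and 5.99 in *jmj13* (7.47-fold, adjusted p = 0.024), and PYL5, a receptor, had 52.7 and 46.0 against 8.22 and 10.1 (5.95-fold, adjusted p = 0.024). Both were chosen after their values were seen.

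Auxin-related families held single calls, where 0.727% of all tested genes were called higher in *elf6* and 0.0451% higher in *jmj13*. DFL2, a GH3 gene, had 22.1 and 23.6 TPM in *elf6* and 11.6 and 10.2 in *jmj13* (2.32-fold, adjusted p = 0.046), the smallest fold among the genes called. Of 52 tested SAUR genes, small auxin-induced transcripts, AT1G72430 was higher in *elf6*, with 99.4 and 89.7 TPM against 16.2 and 22.1 (5.43-fold, adjusted p = 0.026), and AT1G19830 was higher in *jmj13*. The median of the SAUR list, which holds the study's gene SAUR26 and so is not wholly independent, was 0.04, and none of 18 tested Aux/IAA genes was called. With only the 4 libraries in the fit, 2 Aux/IAA genes passed, both higher in *elf6*.

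Of 93 tested NBS-LRR genes, intracellular immune receptors, 3 were called, all higher in *elf6*, and the list median was 0.15. The share of all tested genes called higher in *elf6* was 0.727%. AT4G19520 had 2.54 and 2.64 TPM in *elf6*, 0.0342 and 0.183 in *jmj13*, 0.188 and 0.0683 in Col-0 and 0.173 and 0.391 in *ref6* (26.0-fold, adjusted p = 0.015). On 298 counts in *elf6* and 12 in *jmj13*, its scaled ratio was 26.7 with an exact 95% interval of 15.1 to 52.4. WRR4 had 5.65 and 5.10 TPM in *elf6* and 0.958 and 1.21 in *jmj13* (5.46-fold, adjusted p = 0.035). AT3G44630 had 14.7 and 15.2 TPM against 4.63 and 4.62 (3.56-fold, adjusted p = 0.012), but its exons share 97.0% of 1722 bases with another resistance gene, so its reads are less certain.

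In the list of genes induced by darkness and low sugar, 3 of 17 tested members were called higher in *elf6*, against 0.727% of all tested genes, and the median was 0.72. DIN10, of the raffinose synthase family, had 89.1 and 134 TPM in *elf6*, 14.9 and 23.8 in *jmj13*, 16.3 and 22.2 in Col-0 and 14.6 and 34.8 in *ref6* (6.33-fold, adjusted p = 0.012). TPS8, of the trehalose phosphate synthase family, had 14.1 and 11 TPM in *elf6* and 5.01 and 3.72 in *jmj13* (3.18-fold, adjusted p = 0.028). Transporter genes were also among those called. ERD6, a sugar transporter, had 70.5 and 74.2 TPM in *elf6*, 0.946 and 3.39 in *jmj13*, 4.35 and 2.98 in Col-0 and 2.95 and 6.13 in *ref6* (36.5-fold, adjusted p = 0.0071). SLAH3, an anion channel that conducts nitrate, had 27.5 and 32.3 TPM in *elf6*, 3.93 and 4.81 in *jmj13*, 2.74 and 4.17 in Col-0 and 2.76 and 6.24 in *ref6* (7.54-fold, adjusted p = 0.0053). PUP18, a purine permease, had 73.9 and 75.5 TPM in *elf6*, 4.96 and 6.34 in *jmj13*, 27.7 and 13.0 in Col-0 and 10.5 and 17.2 in *ref6* (14.5-fold, adjusted p = 0.010). For ERD6 and SLAH3 the *elf6* libraries were above all 6 others, and for PUP18 both Col-0 libraries lay above *jmj13*. The study selected PUP18 and the legume lectin gene AT3G15356 on these libraries, so their direction is not independent evidence.

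Several genes with the largest folds have less clear roles. AT5G54710, an ankyrin repeat protein, had 11.6 and 11.1 TPM in *elf6*, 0.103 and 0.424 in *jmj13*, 0.229 and 0.262 in Col-0 and 0.617 and 0.632 in *ref6* (46.5-fold, adjusted p = 0.0053). AT2G30930, which has no annotated function, had 61.7 and 91.1 TPM in *elf6*, 7.68 and 9.27 in *jmj13*, 19.3 and 16.6 in Col-0 and 21.1 and 26.8 in *ref6* (9.94-fold, adjusted p = 0.0071). A legume lectin gene (AT3G15356), a mannose-binding lectin gene (AT1G78850), AT1G72416, AT1G19020 and TET9, a tetraspanin, had log2 fold changes of 4.53, 5.37, 4.41, 4.05 and 3.86. The *jmj13* libraries together held 6 counts of AT3G15356, 8 of AT1G19020 and 9 of TET9. Exact 95% intervals of their scaled ratios were 10.8 to 67.2, 8.49 to 40.8 and 7.7 to 33.7. AT1G78850 shares 91.3% of 1395 exon bases with its neighbour and rests on 5 counts in the *jmj13* libraries together, with a scaled ratio of 43.7 (exact 95% interval 18.4 to 136). KCS5, which lengthens fatty acids for wax, had 10.4 and 16.6 TPM in *elf6* and 4.51 and 4.02 in *jmj13* (3.50-fold, adjusted p = 0.044), the only call in 60 tested wax and cuticle genes. With only the 4 libraries in the fit 3 genes of that list passed, all higher in *elf6*. Among genes named above, XTH15, DFL2, AT3G44630, DIN10 and TET9 also overlap an annotated gene on the opposite strand.

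The 9 genes higher in *jmj13* were ELF6 and 8 others. Of these, 3 act on the wall: EXPA1 and the genes AT1G48100 and AT4G24780, annotated as pectin lyase-like proteins, a group that includes enzymes that cut pectin. AT4G24780 was the most abundant, with 29.8 and 35.2 TPM in *elf6*, 107 and 122 in *jmj13*, 45.5 and 89.1 in Col-0 and 69.4 and 75.0 in *ref6* (3.19-fold higher in *jmj13*, adjusted p = 0.032). AT1G48100 had 8.78 and 6.14 TPM in *elf6*, 35.2 and 30.2 in *jmj13*, 6.46 and 15.5 in Col-0 and 11.7 and 14.5 in *ref6* (3.96-fold, adjusted p = 0.023). In AT1G48100 Col-0 overlapped *elf6*, whereas in AT4G24780 all Col-0 and *ref6* values lay between the mutants. AT1G48100 overlaps another annotated gene on the opposite strand.

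BEH1, a relative of the brassinosteroid transcription factors BES1 and BZR1, had 5.89 and 4.92 TPM in *elf6*, 15.1 and 16.8 in *jmj13*, 7.21 and 11.5 in Col-0 and 8.73 and 9.56 in *ref6* (2.67-fold, adjusted p = 0.048). AT1G19830, the SAUR gene, had 7.99 and 5.57 TPM in *elf6*, 26.9 and 21.0 in *jmj13*, 9.73 and 11.1 in Col-0 and 7.34 and 10.3 in *ref6* (3.18-fold, adjusted p = 0.039). AT1G78170, annotated as a ubiquitin ligase, had 7.97 and 8.81 TPM in *elf6*, 41.3 and 31.1 in *jmj13*, 10.3 and 18.6 in Col-0 and 11 and 17.6 in *ref6* (3.89-fold, adjusted p = 0.012). In these 3 genes *jmj13* stood above the other 3 genotypes in TPM. PIA1 (AT5G07840), an ankyrin protein that binds phytochrome, had another order: 16.4 and 16.4 TPM in *jmj13* and 13.6 and 12.7 in *ref6*, against 4.36 and 2.62 in *elf6* and 3.27 and 6.46 in Col-0 (4.24-fold between *jmj13* and *elf6*, adjusted p = 0.029). AT1G20070, with no annotated function, had 6.89 and 7.66 TPM in *elf6*, 37.3 and 27 in *jmj13*, 21.9 and 21.5 in Col-0 and 15.5 and 10.8 in *ref6* (3.98-fold, adjusted p = 0.047). Both PIA1 and AT1G20070 overlap genes on the opposite strand.

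**Figure D4:**
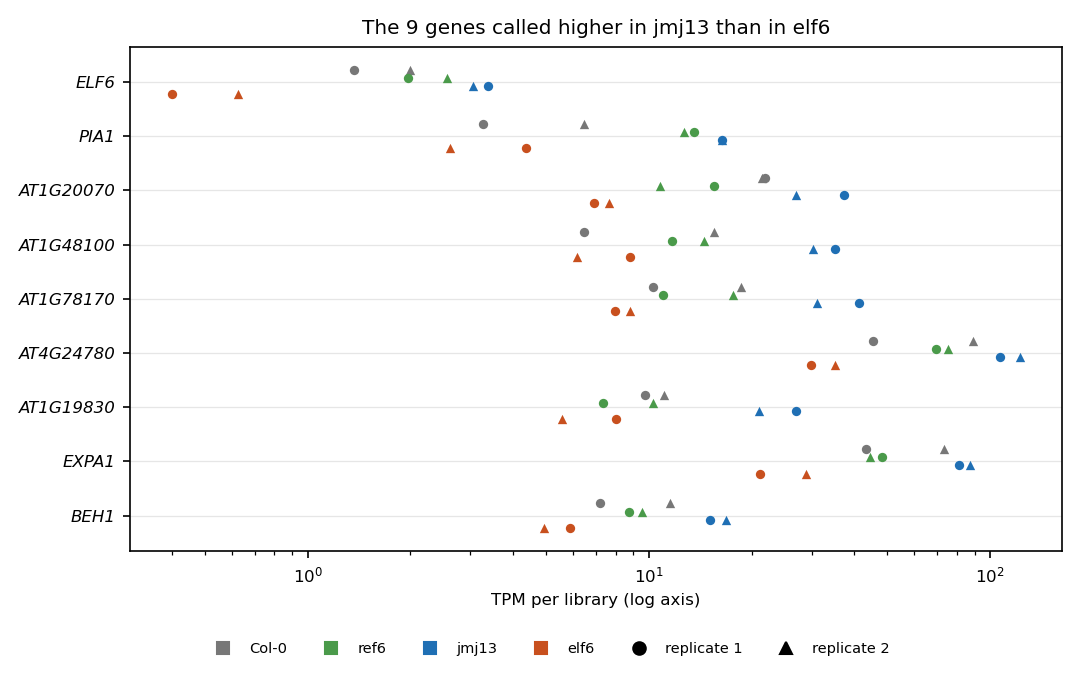
TPM in each of the 8 libraries (horizontal, log axis) for the 9 genes called higher in *jmj13* than in *elf6*; colours are genotypes, circles replicate 1 and triangles replicate 2. In all 9 rows the *jmj13* points lie furthest right in TPM and the *elf6* points at or near the left; for PIA1 the *ref6* points lie beside *jmj13*.

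Since few genes passed in this direction, genes that met the looser rule are described as well, and none of them beyond the 9 is called a change. By this rule 766 genes were higher in *elf6* (3.84%) and 255 higher in *jmj13* (1.28%). The latter count was 129 without *jmj13* replicate 1, the only library whose absence moved it by over 1.5 times. Among the 255 genes, AT3G63210 missed the adjusted threshold most narrowly, with 15.9 and 20.1 TPM in *elf6*, 71.4 and 76.5 in *jmj13*, 32 and 60.6 in Col-0 and 57.6 and 38.8 in *ref6* (log2 fold change -1.89, SE 0.37, adjusted p = 0.051). This gene too was selected by the study on these libraries. GH9B1, an endoglucanase that cuts wall glucans, had 173 and 180 TPM in *elf6*, 413 and 457 in *jmj13*, 262 and 310 in Col-0 and 344 and 269 in *ref6* (log2 fold change -1.16, SE 0.35, adjusted p = 0.24). The GOLDEN2-like factors GLK2 and GPRI1, which drive chloroplast development, were both in this set. GPRI1 had 39.8 and 38.7 TPM in *elf6* against 98.4 and 102 in *jmj13* (log2 fold change -1.20, adjusted p = 0.19), and GLK2 had 15.8 and 19.6 against 45.5 and 41.6 (log2 fold change -1.15, adjusted p = 0.096). Col-0 was near *jmj13* for GPRI1 with 88.5 TPM in replicate 2 and 90 in replicate 1. RGL2, a DELLA repressor of gibberellin responses, had 32.1 and 27.4 TPM in *elf6* and 74.1 and 66.3 in *jmj13* (log2 fold change -1.09, adjusted p = 0.11). The last 4 of these genes were picked after their values were seen.

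No gene was called among 31 cyclins and B-type CDKs, 13 CDK inhibitors, 40 core histones, 299 ribosomal proteins, 20 aquaporins, 18 brassinosteroid genes or 17 Polycomb genes, with median log2 fold changes of -0.18, -0.46, -0.09, 0.03, 0.22, -0.27 and -0.04. None of these lists had a member that met the looser rule, except 1 CDK inhibitor that was higher in *jmj13*. Of all tested genes 0.772% were called, and by the looser rule 3.84% were higher in *elf6* and 1.28% higher in *jmj13*. At these shares, a short list without a call says little about its function. The brassinosteroid list did not hold BEH1, which was called higher in *jmj13*, so its lack of calls does not cover that gene. Of the 5 genes for H3K27 demethylases ELF6 alone was called. Heat shock genes, with 73 tested and a median of -0.01, and circadian clock genes, with 19 tested and a median of 0.04, had no call either. Without the 2 libraries that stood apart, 4 heat shock genes passed higher in *elf6* and 1 higher in *jmj13*. In that fit 1 clock gene passed in each direction.

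Markers of the floral organs were checked in every library. Of 19 genes of the floral meristem and organ identity 18 were above 0 in all 8 libraries, as were all 57 photosynthesis genes. No member of the 10 organ lists was called, against 0.772% of all tested genes. Without the 2 libraries that stood apart, a few members passed, all higher in *elf6*. They were 2 stamen filament and jasmonate MYB genes, 1 petal and sepal gene and 1 photosynthesis gene, out of 746 genes in that fit. The median log2 fold change was -0.05 for floral meristem and organ identity, -0.28 for meiosis, 0.45 for tapetum and pollen wall, 0.75 for pollen coat, -0.49 for late pollen, 0.06 for petal and sepal, -0.17 for carpel and ovule, 0.41 for stamen filament and jasmonate MYB genes, 0.25 for photosynthesis and -0.25 for root. All 11 pollen coat genes and 20 of 23 tapetum genes had values above 0, and 5 of 35 late pollen genes did. Summed over the list, pollen coat genes had 5490 and 8460 TPM in *elf6*, 4700 and 4370 in *jmj13*, 7530 and 7950 in Col-0 and 5410 and 8540 in *ref6*. Late pollen genes had 2100 and 1190 TPM in *elf6* and 3440 and 2000 in *jmj13*, which overlap. The part of these markers in the called genes was not tested, and in whole buds fewer cells of a type cannot be told apart from less RNA per cell.

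**Figure D5:**
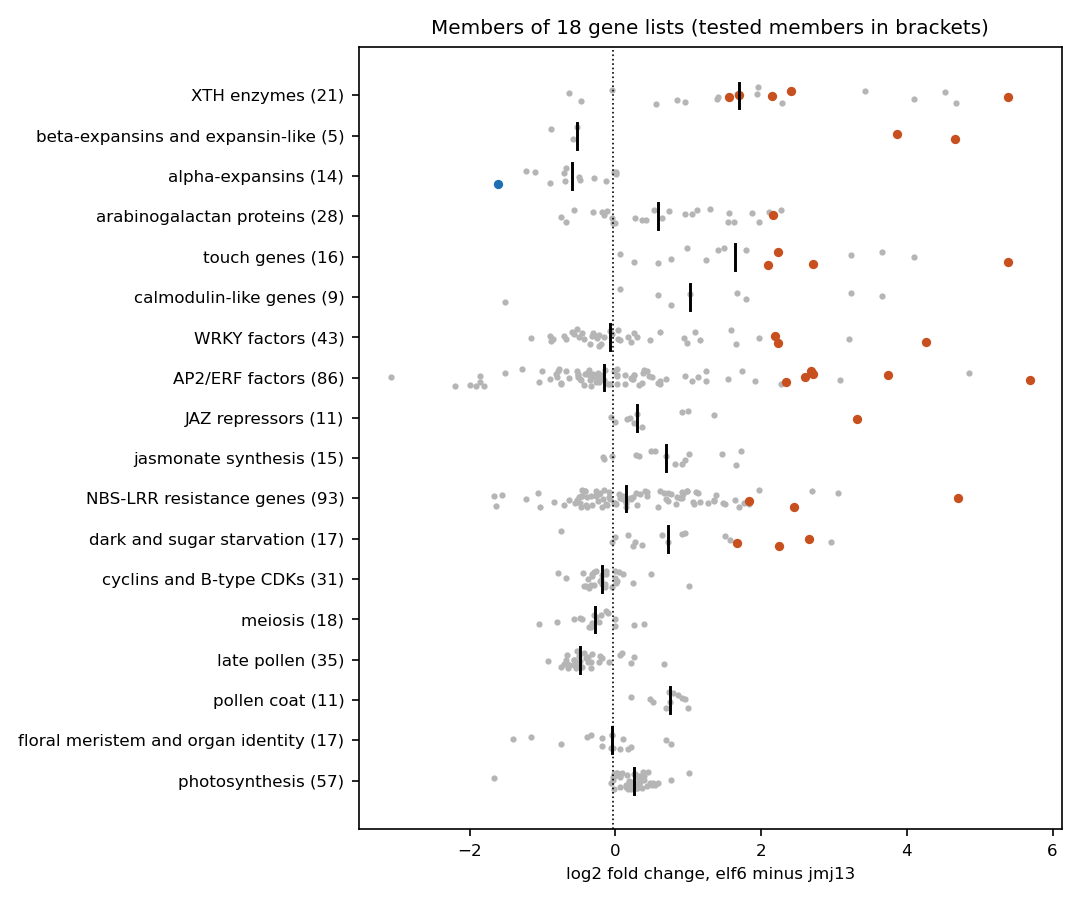
Log2 fold change (*elf6* minus *jmj13*) of the tested members of 18 gene lists, each point a gene; orange points were called higher in *elf6*, blue points higher in *jmj13*, grey points were not called, black bars are list medians and the dotted line the median of all genes, -0.03. XTH enzymes (median 1.70) and touch genes (1.64) lie to the right, alpha-expansins (-0.59) to the left.

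The called genes were chosen for their difference between *elf6* and *jmj13* in these same libraries. The orders given here are therefore in part set by that choice, and they were not counted over all tested genes. Which mutant departs from Col-0 was not tested. Among the 145 genes higher in *elf6*, the Col-0 mean lay between the means of the 2 mutants for 127 genes, below both for 15 and above both for 3, in depth-scaled counts after TMM. It was nearer to *jmj13* than to *elf6*, on a log scale, for 103 of the 145. In TPM the same counts were 95 between, 48 below and 2 above, with 129 nearer to *jmj13*. Both *elf6* libraries exceeded all 6 others in 130 of the 145 genes by scaled counts and in 138 by TPM. Both *jmj13* libraries were below all 6 others in 75 by scaled counts and in 31 by TPM, so this number differed with the scale. The *ref6* mean was nearer to *jmj13* for 116 genes by scaled counts and for 130 by TPM. For the 9 genes higher in *jmj13*, Col-0 lay between the mutants for 8 by scaled counts and for 9 by TPM. Both *jmj13* libraries exceeded all 6 others in 9 of these genes by TPM but in 3 by scaled counts, and both *elf6* libraries were below all 6 others in 6 by TPM and in 9 by scaled counts.

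The genes higher in *elf6* had a median of 2 exons against 4 for all tested genes, and 51 of 144 had a single exon (35.4%) against 16.3% of all tested genes. The 255 genes higher in *jmj13* by the looser rule also had a median of 2 exons, with 30.6% of single-exon genes. By chromosome, 37 of the 145 genes lay on chromosome 4 (25.5%), which holds 15% of all tested genes. The count of called genes was 253 with a correction for gene length, 235 of them higher in *elf6*.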

How the data were processed

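The authors sequenced single-end reads and aligned them with bowtie2 to TAIR10; Bowtie2, RSEM and TAIR10 are named in the submitters' processing notes, without versions. The authors deposited for each of the 8 libraries an expected count per gene, neither scaled for depth nor length, and an FPKM value, scaled for both. The gene length deposited by the authors served only for the length correction. The annotation and the use of strand are not given in the sources used here. Genes at 0 are unlisted and were taken as 0. TPM was computed from the FPKM.

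Genotypes came from the labels. Expected counts were rounded, and filterByExpr by genotype kept 19939 of 25738 genes. They were TMM-scaled and fitted over all 8 libraries with 1 factor for genotype in edgeR 4.0.16 (R 4.3.3, glmQLFit and glmQLFTest; limma 3.58.1; DESeq2 1.42.0), with Benjamini-Hochberg adjustment over all genes. A gene was called at an adjusted p under 0.05 and at least 2-fold. Fold changes are from this fit. The alternatives were other scalings, filters, tests, sample sets, a replicate block, and the NOISeq criteria of the study recomputed on TPM. The script was tested on simulated data.

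Names, promoters and exons came from RefSeq TAIR10.1, whose chromosomes are those of TAIR10, and 25391 IDs matched. Named genes were ELF6, JMJ13 and REF6, up to 15 called genes per direction with the largest fold, no overlap and at least 5 TPM, the 10 with the lowest p, the 10 higher in *jmj13* with the lowest p by the looser rule, and in each of 50 lists up to 4 called members or the 2 with the lowest p. The genotypes compared and the lists were chosen with earlier results of these data known. Intervals cover counting error only.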

Additional observations from a re-analysis of the deposited data

How the results depend on the processing

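The direction held in all fits that made calls, but the number of genes did not. Against 154 calls, 145 higher in *elf6* and 9 higher in *jmj13*, the counts were 32 (30 and 2) with library size only, 253 (235 and 18) with a length correction, 447 (406 and 41) without a low-count filter, 726 (622 and 104) with only the 4 libraries, 746 (647 and 99) without both libraries that stood apart, a setting chosen after seeing the data, 435 (396 and 39) with DESeq2, 519 (393 and 126) by the NOISeq criteria, 23 (23 and 0) with limma on log2(FPKM + 0.1) and 89 (79 and 10) with limma at a mean FPKM of at least 1. With limma on log2(FPKM + 1) 18 genes were higher in *jmj13*. Dropping the fold criterion also gave 154. Leaving out 1 library gave 0 to 326 calls, 0 to 296 higher in *elf6* and 0 to 30 higher in *jmj13*. By the looser rule the counts were 489 and 104 at a mean of at least 50 reads, 476 higher in *elf6* with limma on log2(FPKM + 1), and 447 and 166 at a mean FPKM of at least 1; leaving out 1 library gave 554 to 806 and 129 to 281. The cause of these shifts was not tested beyond the fewer genes or libraries that the settings themselves hold.

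Replicate numbers are shared by all genotypes, but no source says that they mark a common harvest, and with 2 pairs the correlation of 0.268 between the replicate ratios of *elf6* and *jmj13* does not show it. With the replicate block, 287 genes were called (266 and 21) in 8 libraries and 999 (760 and 239) in 4. In the block over 8 libraries, 105 of 112 named genes stayed on their side of the threshold and 7 more passed it. None of the 52 called genes that the naming rule gave changed sign in any setting. REF6, not called, changed sign with the length correction (0.00), without *elf6* replicate 2 (0.10) and without *jmj13* replicate 1 (0.17), and leaving out 1 library gave -0.52 to 0.17. With library size only, the median of all genes was -0.16, a shift of over 0.1. With it, list medians were -0.72 for alpha-expansins, 1.57 for XTH enzymes and 1.52 for touch genes, and those of cellulose synthases, SAUR, clock, ribosomal and petal genes turned negative.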

Other observations

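The 2 *ref6* libraries were far apart in several of the genes called higher in *elf6*. WRKY18 had 0.649 and 12.2 TPM in *ref6* replicates 1 and 2, DREB26 had 2.57 and 14.3, EXO had 69.1 and 318, and PHI-1 had 5.92 and 34.1. The summed level of the touch genes was 151 and 478 TPM in the same libraries. STZ, a zinc finger factor of stress responses that was not called, had 149 and 142 TPM in *elf6* and 41.8 and 72.0 in *jmj13*.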
